A study of Mus musculus with 8 samples.

Results

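The SUMO genes described here are 8 genes of small ubiquitin-like modifier conjugation, Sumo2, Sumo3, Sae1, Uba2, Pias1, Senp1, Senp2 and Senp3. They were taken by gene symbol from the 18645 genes listed for activated hepatic stellate cells (AHSC) and the 17408 genes listed for bone marrow-derived macrophages (BMDM), and all 8 were found in both tables. The set was chosen on measured values, because Sumo3 was higher with auranofin in BMDM and jumped within 1 condition in AHSC. The auranofin comparisons of the members are therefore given as a description, without a test.

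SUMO proteins are small proteins that are attached to lysines of other proteins, mostly nuclear ones. SUMO2 and SUMO3 are close relatives that can form chains. A precursor is first trimmed by a SENP protease, then activated by the E1 enzyme made of SAE1 and UBA2, passed on to a conjugating enzyme and attached to a target, often with the help of an E3 ligase such as PIAS1. SENP proteases also remove SUMO from its targets. SUMO conjugation, above all of SUMO2 and SUMO3, is known to rise in cells under heat or oxidative stress.

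RNA was sequenced from C57BL/6 mouse cells in 4 groups with 2 libraries each. The AHSC, primary collagen-producing liver cells isolated by density gradient, received 0.03 µM auranofin, a gold compound used in rheumatoid arthritis, for 12 h, or served as controls that the labels call untreated and the publication vehicle-treated. The BMDM, grown from the marrow of male mice of 8 weeks with macrophage colony-stimulating factor for 7 days, all received ATP at 1 mM after priming with LPS at 100 ng/ml, and 2 of the 4 libraries also auranofin for 1 h. The labels give the BMDM dose as 0.1 µM, whereas the publication's legend names a higher one. No label says that the replicates of a group came from separate animals, so the spread between them may be technical. Values are FPKM, the fragments of a gene scaled by the length of its transcript and the depth of its library. The tables were normalized separately, so levels in AHSC and BMDM are set side by side without a test.

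Both tables held the markers of their labelled cells. In AHSC, the 10 stellate markers examined, such as Acta2 and Col1a1, summed to 3759 and 3919 FPKM in the controls and to 3336 and 3434 FPKM with auranofin. Macrophage markers were also present in the same cultures, where 9 of the 10 listed reached a mean of 1 FPKM. The macrophage markers summed higher than the stellate markers. Their sums were 7708 and 7740 FPKM in the controls and 7606 and 7584 FPKM with auranofin. Most of this was Lyz2, with 5519 and 5554 FPKM in the controls. These sums lie within the BMDM range given below, though the tables were normalized separately and single markers differed in both directions. Control means of Clec4f, Marco and Vsig4 were 58.88, 410.7 and 255.9 FPKM in AHSC and 0.014, 16.9 and 0.6825 FPKM in BMDM. Those of Adgre1 and Cd68 were 108.9 and 657.5 FPKM in AHSC and 409.1 and 1800 FPKM in BMDM. The part of macrophages in the AHSC values of the SUMO genes was not tested. Endothelial markers summed to between 160.5 and 174.7 FPKM. In BMDM the macrophage sum was between 6783 and 7834 FPKM and the stellate sum between 10.2 and 16.2 FPKM, while the endothelial sum was 13.5 and 13.3 FPKM in the controls, 6.35 FPKM in auranofin replicate 1 but 11.8 FPKM in replicate 2. Hepatocyte markers summed to at most 1.74 FPKM in AHSC and 3.69 FPKM in BMDM. Of the stellate, macrophage, endothelial and hepatocyte markers tested, 0 were past both 1.5-fold and an unadjusted p under 0.05 by limma. Of all genes, 0.576% were in AHSC and 0.152% in BMDM. In AHSC, 10 stellate, 9 macrophage and 5 endothelial markers were tested. Of these, 3 passed a Benjamini-Hochberg adjusted limma threshold of 0.05 at smaller folds, beside 2.33% of all genes. They were Acta2 (log2 difference -0.38, adjusted p = 0.00719), the endothelial Stab2 (-0.37, adjusted p = 0.0169) and the Kupffer cell gene Clec4f (0.27, adjusted p = 0.0395), and their part in the values of the SUMO genes was not tested. In bulk RNA, fewer cells of a type and less RNA per cell cannot be told apart. The libraries held an estimated 27500000 to 39400000 fragments. BMDM auranofin replicate 1 stood apart, since the BMDM auranofin libraries were 2-fold or more apart for 383 of 4245 genes whose mean reached 10 FPKM, and the BMDM controls for 14. Each BMDM value below is therefore given for both auranofin libraries.

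The coding sequences of Sumo2 and Sumo3 show how alike the paralogs are in their coding part. Fragments come from whole transcripts, and the rest of each transcript was not aligned here. Coding bases are 285 of 1051 in the Sumo2 transcript and 330 of 2630 in the longest Sumo3 transcript. Both are read from GENCODE M21 on GRCm38 (mm10), 5′ to 3′, on the strand of the mRNA and without the stop codon. Sumo2 lies at chr11:115523109-115536230 on the minus strand and Sumo3 at chr10:77606097-77618331 on the plus strand. Sumo2 is shown whole and Sumo3 for its first 300 of 330 bases, with capitals at bases that differ between them or have no counterpart in the alignment.
Sumo2: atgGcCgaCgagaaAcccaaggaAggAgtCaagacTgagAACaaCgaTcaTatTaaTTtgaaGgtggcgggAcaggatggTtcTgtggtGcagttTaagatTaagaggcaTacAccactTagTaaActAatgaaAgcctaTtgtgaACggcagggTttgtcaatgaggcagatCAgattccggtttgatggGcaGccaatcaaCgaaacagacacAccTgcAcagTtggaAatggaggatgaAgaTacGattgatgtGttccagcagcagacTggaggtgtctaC
Sumo3: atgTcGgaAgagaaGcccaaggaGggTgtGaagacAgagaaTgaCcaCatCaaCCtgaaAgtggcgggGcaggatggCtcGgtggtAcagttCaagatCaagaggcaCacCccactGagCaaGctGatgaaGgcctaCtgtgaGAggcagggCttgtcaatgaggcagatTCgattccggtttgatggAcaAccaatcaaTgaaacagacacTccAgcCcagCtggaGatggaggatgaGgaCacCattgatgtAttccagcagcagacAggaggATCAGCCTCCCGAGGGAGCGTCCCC
Of 282 aligned coding bases, 234 (83.0%) were identical, and the longest identical run was 17 bases. Sumo2 has 95 codons and Sumo3 has 110. Most of the capitals stand alone, and the last stretch of Sumo3 shown has no counterpart in Sumo2.

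Sumo3 was the member with the largest difference between libraries. In BMDM it had 6.64 and 7.09 FPKM in the controls, 21.3 FPKM in auranofin replicate 1 and 18.7 FPKM in replicate 2. Both auranofin libraries lay well above both controls, replicate 2 as well as replicate 1. The control mean was 6.86 ± 0.322 FPKM (SD, n = 2) and the auranofin mean 19.99 ± 1.83 FPKM (SD, n = 2), a ratio of 2.91. On the log2(FPKM + 1) scale the difference was 1.41 (standard error 0.13), with 1.503 from auranofin replicate 1 and 1.32 from auranofin replicate 2 against the control mean.

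In AHSC, Sumo3 had 21.1 and 20.2 FPKM in the control libraries, 58.4 FPKM in auranofin replicate 1 but 20.4 FPKM in replicate 2. A single library was thus high, and the other 3 lay between 20.2 and 21.1 FPKM. The high library was 2.84 times the mean of the other 3, beside the ratio of 2.91 between the BMDM groups. The auranofin mean of 39.4 ± 26.9 FPKM (SD, n = 2) has a spread that reaches the control mean of 20.7 ± 0.612 FPKM (SD, n = 2). The log2 difference of 0.72 (standard error 0.44) was 1.45 from auranofin replicate 1 alone and -0.02 from auranofin replicate 2 alone. Among 8963 genes tested in both tables, Sumo3 was the gene whose value was at least 1.5-fold above the other 3 libraries in AHSC auranofin replicate 1 and in which both BMDM auranofin libraries were at least 1.5-fold above both controls. It was chosen for these values, so this count is a description. The first condition held for 9 genes and the second for 12.

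**Figure D1:**
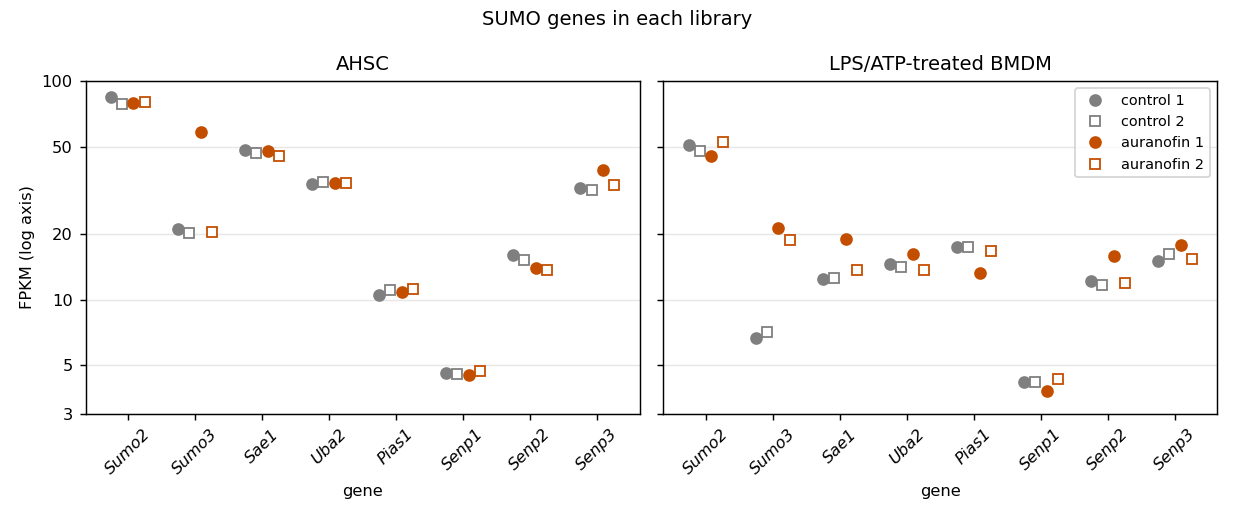
FPKM of the 8 genes (log axis) in each library of AHSC (left) and LPS/ATP-treated BMDM (right), with controls in grey, auranofin in orange, replicate 1 filled and replicate 2 open. Sumo3 is high at 58.4 FPKM in 1 AHSC auranofin library and at 21.3 and 18.7 FPKM in both BMDM auranofin libraries, while the 4 points of Sumo2 lie close together in both panels.

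The deposited value of Sumo3 stands for 6 RefSeq transcripts, the most of any member. They correspond to 5 GENCODE transcripts of very different length, from 487 to 2630 bases. The transcripts of 2630 and 1874 bases both hold 330 coding bases, but the latter begins 474 bases further along and has its own first exon. The transcripts of 772 and 487 bases both start 128 bases from the gene's start, stop earlier in the last exon, and hold 288 and 339 coding bases. The one of 776 bases starts 7612 bases into the gene and corresponds to a non-coding RefSeq entry. Since FPKM divides by transcript length, the same fragments give a value 3.41 times as high on the 772-base transcript and 5.40 times as high on the 487-base transcript as on the longest. The table gives 1 value for the gene and none for a transcript, and the part that transcript choice has in the Sumo3 values was not tested.

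**Figure D2:**
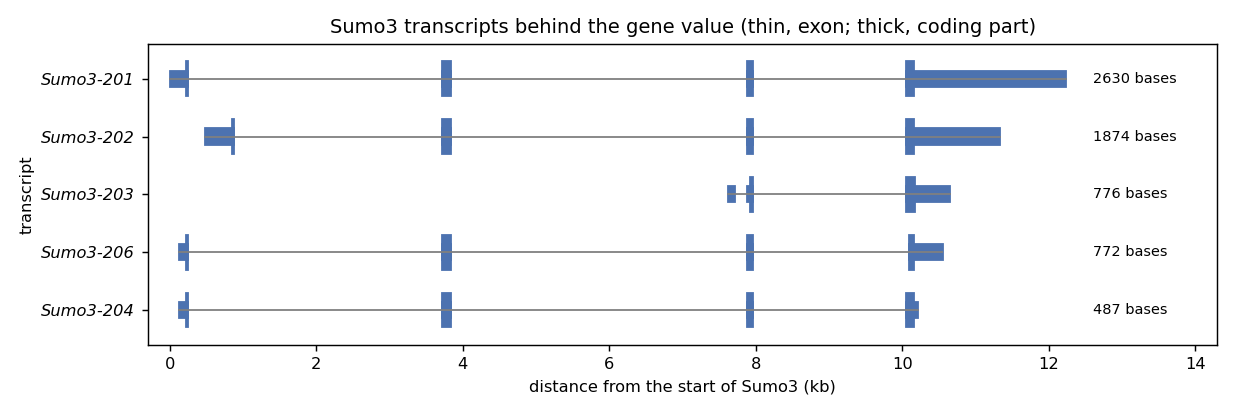
Exons of the 5 GENCODE transcripts matched to the RefSeq entries of Sumo3, drawn to scale by distance from the gene's start in kb, with exons as thin boxes and coding parts as thick boxes. The transcripts differ most in where they start and in the length of the last exon, and measure between 487 and 2630 bases in all.

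The number of fragments behind Sumo3 depends on the same choice. With the longest transcript, the BMDM control values correspond to about 519 and 513 fragments and the auranofin values to 1957 and 1697. With the shortest, they correspond to 96 and 95 against 362 and 314. In AHSC, the longest transcript gives 1746 and 1759 fragments in the controls and 4579 and 2110 with auranofin. These numbers assume the same transcript in every library. The counting error was at most 10.3% for any member in any library, whichever of its transcripts is assumed.

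Sequence shared with other genes differed between the paralogs. Of the 50-base words of the longest Sumo3 transcript, 11.5% were also found in transcripts of another gene, Gm49325, which overlaps Sumo3 from base 77606197 to 77641543 of chromosome 10 and reaches into Ube2g2. Gm49325 is listed in neither FPKM table. None of its words was found in a transcript of Sumo2. Of the words of Sumo2, 30.2% were shared with other genes, the most with Gm10241 (23.65%) and Smt3h2-ps4 (22.1%). Among the genes that share them, Mir684-1 has values in the tables, between 3.68 and 5.35 FPKM in AHSC and between 1.75 and 2.51 FPKM in BMDM, and Mir684-2 stayed under 0.49 FPKM in every library. The Sumo2 values lay close together in every group. The words test exact matches between transcripts, not alignments.

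The genes on either side of Sumo3 had other profiles. Pttg1ip, the gene before it, had 92.6 and 91.8 FPKM in AHSC controls and 102 and 100 FPKM with auranofin. Ube2g2, a ubiquitin-conjugating enzyme gene after it, had 36.5 and 37.4 FPKM in AHSC controls and 37.1 and 35.0 FPKM with auranofin. In BMDM, Pttg1ip had 34.0 and 33.5 FPKM with control, 51.0 FPKM in auranofin replicate 1 but 34.1 FPKM in replicate 2. Ube2g2 had 21.1 and 22.5 FPKM with control, 34.1 FPKM in auranofin replicate 1 but 20.5 FPKM in replicate 2. Both neighbours were high in the BMDM library that stood apart and at the control level in the other, where Sumo3 was high. By limma with Benjamini-Hochberg adjustment the adjusted p was 0.115 for Pttg1ip and 0.710 for Ube2g2 in AHSC, and 0.721 for both in BMDM.

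The profiles most like that of Sumo3 were sought over the 8 libraries, with log2(FPKM + 1) centred on the control mean of each table and ranked by Euclidean distance. The nearest was Sh2b3, an adaptor gene of cytokine signalling, at a distance of 1.31 where the flat profile lies at 2.48. Sh2b3 had 8.81 and 10.4 FPKM in AHSC controls and 22.7 and 23.0 FPKM with auranofin, so that it was high in both AHSC auranofin libraries and not in 1. In BMDM it had 3.06 and 3.34 FPKM with control and 9.76 and 7.18 FPKM with auranofin. The next were Susd3 (distance 1.43), 2210408F21Rik (1.49), Spic (1.54) and Serpinb9b (1.55). Pearson's r with Sumo3 was 0.757 for Sh2b3 and between 0.692 and 0.739 for the other 4, over 8 libraries that share their controls, so it is a description.

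**Figure D3:**
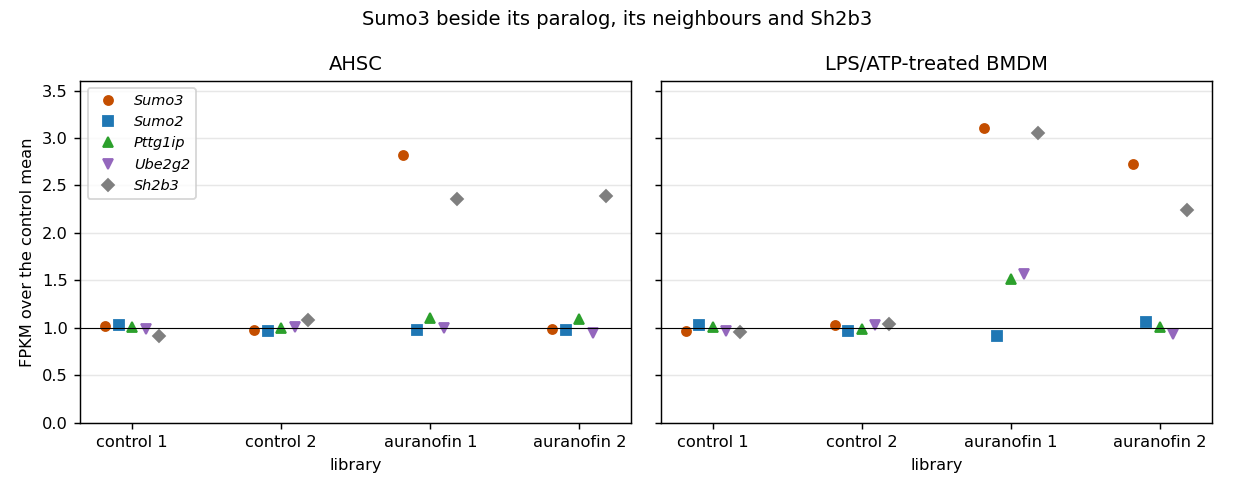
FPKM of 5 genes divided by their control mean, for each library of AHSC (left) and LPS/ATP-treated BMDM (right); the line at 1 marks the control mean and points are spread sideways for reading. Sumo3 steps up in 1 AHSC and 2 BMDM auranofin libraries, its neighbours Pttg1ip and Ube2g2 do so in BMDM auranofin replicate 1, Sumo2 in none, and Sh2b3 in all 4 auranofin libraries.

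Sumo2, known as the predominant SUMO gene of the mouse embryo, was the highest member in both tables. It had 84.4 and 78.6 FPKM in AHSC controls and 79.2 and 79.9 FPKM with auranofin. In BMDM it had 51.1 and 48.0 FPKM with control and 45.5 and 52.5 FPKM with auranofin. The groups overlapped in both cell types, and the log2 differences were -0.03 (standard error 0.04) and -0.02 (standard error 0.13). Sumo3 accordingly took a larger part of the summed FPKM of Sumo2 and Sumo3 where it was high. That share was 20.02% and 20.48% in AHSC controls, 42.4% in auranofin replicate 1 and 20.3% in auranofin replicate 2. In BMDM it was 11.5% and 12.9% with control and 31.9% and 26.2% with auranofin.

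The genes of the E1 enzyme differed little between the AHSC libraries. Sae1 had 48.2 and 46.7 FPKM in AHSC controls and 47.9 and 45.3 FPKM with auranofin, and Uba2 had 33.7 and 34.6 FPKM in controls and 34.2 and 34.2 FPKM with auranofin. The log2 differences were -0.02 (standard error 0.04) for Sae1 and 0.00 (standard error 0.04) for Uba2. In BMDM, Sae1 had 12.4 and 12.61 FPKM with control, 18.8 FPKM in auranofin replicate 1 but 13.7 FPKM in replicate 2. Both auranofin values of Sae1 were above both controls, by 0.56 and 0.12 on the log2 scale. Uba2 had 14.5 and 14.1 FPKM with control and 16.1 and 13.7 FPKM with auranofin, so its groups overlapped. The subunits also stood in a different ratio in the 2 tables. Sae1 over Uba2 was between 1.32 and 1.43 in the AHSC libraries, 0.853 and 0.897 in the BMDM controls and 1.17 and 1.00 in the BMDM auranofin libraries.

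Pias1, an E3 ligase gene, had 10.5 and 11.1 FPKM in AHSC controls and 10.9 and 11.2 FPKM with auranofin. In BMDM it had 17.4 and 17.3 FPKM with control, 13.2 FPKM in auranofin replicate 1 but 16.8 FPKM in replicate 2. Both auranofin values were lower than both controls, with log2 differences of -0.37 and -0.05. The standard error of their mean difference of -0.21 was 0.15.

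The 3 protease genes differed from each other. Senp2, whose product acts at the nuclear pore, had 16.0 and 15.1 FPKM in AHSC controls and 14.0 and 13.7 FPKM with auranofin. Both auranofin libraries were lower, with a log2 difference of -0.16 (standard error 0.05), a ratio of 0.889. In BMDM, Senp2 had 12.2 and 11.7 FPKM with control, 15.9 FPKM in auranofin replicate 1 but 11.9 FPKM in replicate 2, so that replicate 2 lay between the controls.
Senp3 encodes a nucleolar protease that acts mainly on SUMO2 and SUMO3. It had 32.2 and 31.8 FPKM in AHSC controls, 39.1 FPKM in auranofin replicate 1 but 33.4 FPKM in replicate 2. Both auranofin values lay above both controls, and the larger one came from the library in which Sumo3 was high. The log2 difference was 0.17 (standard error 0.07), with 0.28 and 0.06 from the single libraries. In BMDM, Senp3 had 15.0 and 16.2 FPKM with control and 17.7 and 15.4 FPKM with auranofin, and the groups overlapped.
Senp1, a protease of both SUMO precursors and conjugates, was the lowest member. It had 4.61 and 4.57 FPKM in AHSC controls and 4.54 and 4.71 FPKM with auranofin. In BMDM it had 4.21 and 4.19 FPKM with control and 3.804 and 4.333 FPKM with auranofin. The groups overlapped in both cell types.

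The order of the control means differed between the tables. In AHSC it ran from Sumo2 (81.5 FPKM) through Sae1 (47.4), Uba2 (34.1), Senp3 (32.0), Sumo3 (20.7), Senp2 (15.6) and Pias1 (10.8) to Senp1 (4.59 FPKM). In BMDM it ran from Sumo2 (49.5 FPKM) through Pias1 (17.3), Senp3 (15.6), Uba2 (14.28), Sae1 (12.5), Senp2 (11.9) and Sumo3 (6.86) to Senp1 (4.20 FPKM). The control libraries of genes next to each other in these orders did not overlap, but the gap between Sae1 and Senp2 in BMDM was 0.17 FPKM.

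All 8 members passed the minimum mean of 1 FPKM in both tables. The auranofin and control libraries did not overlap for 2 of 8 members in AHSC, beside 50.1% of all genes, and for 3 of 8 in BMDM, beside 38.8%. The median log2 difference of the 8 was 0.00636 in AHSC and 0.06 in BMDM. Because the members were chosen on these comparisons, nothing is read from their counts. With 2 libraries in each group, the smallest two-sided p of an exact permutation test is 0.333.

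Differences within a condition were counted next. None of the 8 genes differed at least 1.5-fold between the control libraries of AHSC (0.815% of all genes did) or of BMDM (0.975%). Between the AHSC auranofin libraries, 1 of 8 (Sumo3) differed at least 1.5-fold, beside 0.938% of all genes. Sumo3 was chosen for this jump, so that count was fixed in advance and nothing is read from it. Between the BMDM auranofin libraries, 0 of 8 members differed at least 1.5-fold, beside 23.1% of all genes, from which nothing is read. The widest member there was Sae1, with a factor of 1.37 between its FPKM values, and Sumo3 had a factor of 1.14.

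The other genes of the pathway came from a list of 28, of which 27 passed the minimum in each table. Rwdd3, an enhancer of SUMO conjugation, did not. In AHSC 13 genes were higher and 14 lower with auranofin, where 52.2% of all genes were higher, and the median log2 difference was -0.000717 beside 0.00487 for all genes. A gene was called when its fold change was at least 1.5 and its unadjusted p from limma under 0.05. In AHSC 0 of 27 were called, beside 0.576% of 12149 genes, and 0 passed at a Benjamini-Hochberg adjusted p of 0.05, beside 2.33%. Against the control mean 0 of 27 were past 1.5-fold in either auranofin library, beside 1.27% of all genes in replicate 1 and 1.05% in replicate 2. At an unadjusted p under 0.05, 4 of 27 passed, no larger a share than the 17.8% of all genes. They were Desi1 and Ipo13 (higher) and Rangap1 and Rnf111 (lower). Desi1, a deSUMOylating peptidase gene, had 11.1 and 11.3 FPKM in controls and 12.3 and 12.4 FPKM with auranofin. Rangap1, a classic SUMO target at the nuclear pore, had 31.7 and 32.7 FPKM in controls and 29.3 and 29.0 FPKM with auranofin. Their log2 differences were 0.13 and -0.14, with an adjusted p of 0.197 and 0.145 from limma.

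In BMDM 17 of the 27 pathway genes lay above the controls and 10 below, where 66.1% of all genes were higher. Their median log2 difference was 0.19, beside 0.09 for all genes. By limma 0 of 27 were called, beside 0.152% of 9232 genes, 0 had an adjusted p under 0.05, beside 0.0108%, and 0 an unadjusted p under 0.05, beside 0.531%. By library, the median was 0.33 (auranofin replicate 1) and 0.01 (replicate 2), against 0.18 and 0.00 for all genes. Against the control mean, 8 of 27 were past 1.5-fold in auranofin replicate 1, 6 of them higher, beside 23.2% of all genes. In auranofin replicate 2, 0 of 27 were, beside 0.661% of all genes. Sumo3 was past 1.5-fold in both. Between the BMDM auranofin libraries, 8 of the 27 differed at least 1.5-fold, beside the 23.1% of all genes.
The ligase genes Topors and Zfp451 were farthest above the control mean in auranofin replicate 1. Topors had 6.11 and 6.37 FPKM with control, 12.8 FPKM in auranofin replicate 1 but 6.29 FPKM in replicate 2. Zfp451 had 2.53 and 2.59 FPKM with control and 6.37 and 2.29 FPKM with auranofin. Both were at the control level in replicate 2.
Pml, which builds SUMO-rich nuclear bodies, had 71.2 and 73.2 FPKM with control, 41.2 FPKM in auranofin replicate 1 but 71.2 FPKM in replicate 2. Sp100, another gene of these bodies, had a like profile, with 201 and 193 FPKM in the controls and 133 and 202 FPKM with auranofin. Ranbp2, the E3 ligase of the nuclear pore, was below both controls in both libraries, with 73.5 and 76.8 FPKM in the controls and 48.8 and 65.1 FPKM with auranofin. Its log2 difference was -0.41 (standard error 0.18, adjusted p = 0.721 from limma).

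**Figure D4:**
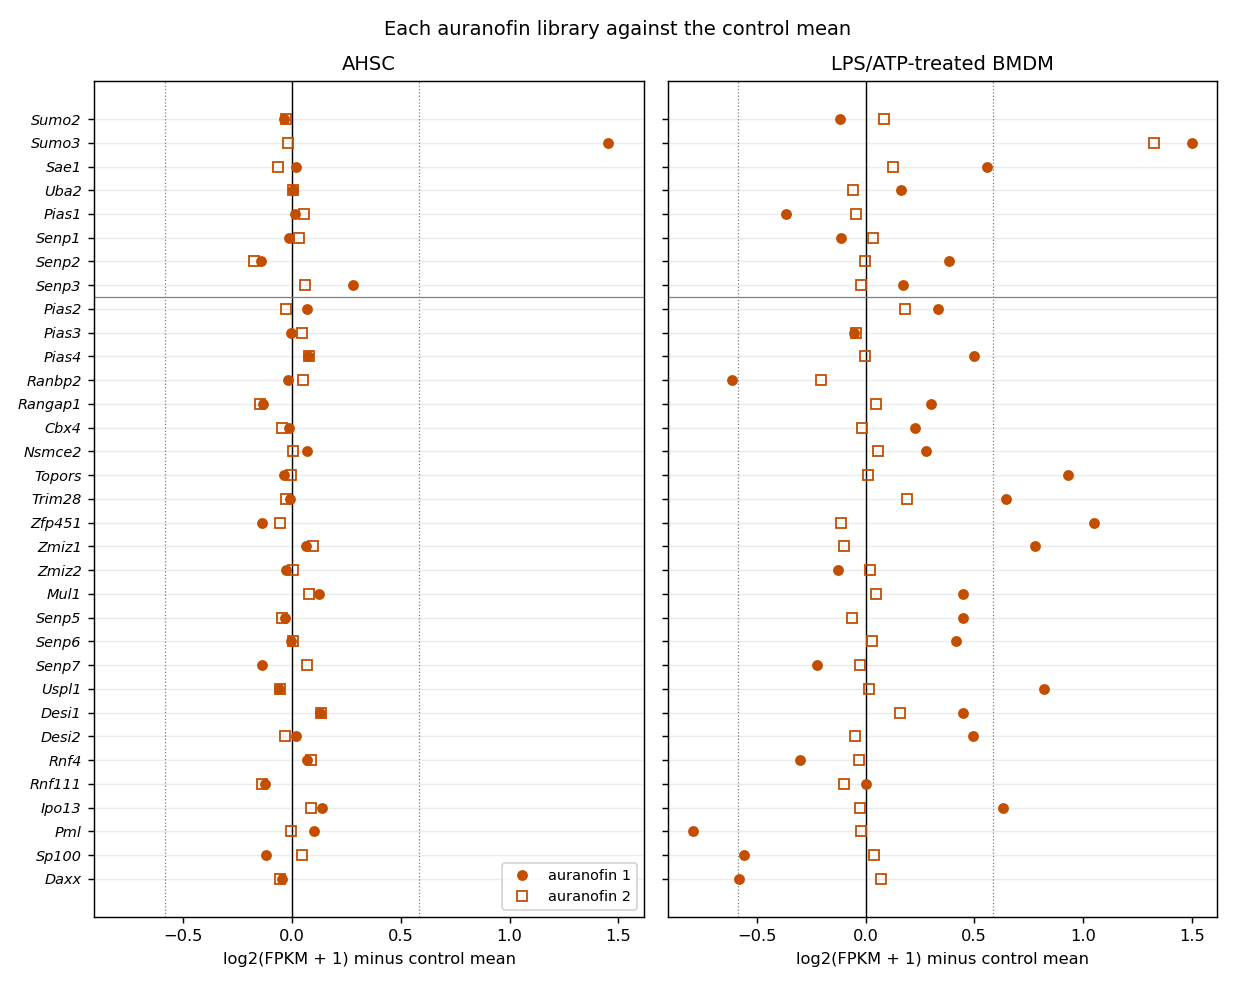
Difference of each auranofin library from the control mean on the log2(FPKM + 1) scale, for the 8 members (above the line) and other SUMO pathway genes (below it) in AHSC (left) and LPS/ATP-treated BMDM (right); dotted lines mark 1.5-fold. Open squares, auranofin replicate 2, stay inside the dotted lines for all genes shown in both panels except Sumo3 in BMDM at 1.32.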

How the data were processed

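Polyadenylated RNA was sequenced from 8 libraries, 4 of AHSC and 4 of BMDM. The authors deposited FPKM values per gene on mm10 with RefSeq transcripts. The submitters' processing notes name Trimmomatic 0.38, HISAT2 2.1.0 and StringTie 1.3.4d. How StringTie divided fragments among transcripts is not given in the sources used here. Columns were matched to samples by name.

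Each table was fitted alone as log2(FPKM + 1) over genes whose mean reached 1 FPKM, with limma 3.58.1 (eBayes with trend) in R 4.3.3. Depth was estimated from the steps of single fragments in values under 0.2 FPKM of genes with 1 transcript, using GENCODE M21 lengths. Of 19382 gene identifiers, 19336 were found in the RefSeq table of GRCm38. Coding sequences were aligned with Biopython 1.88. The fit was tested on simulated data. Members and gene lists were chosen with earlier results of these data known. The genes named besides the members are the extremes of each list, the neighbours of Sumo3, genes that share its sequence and the 5 nearest profiles. Ipo13, Rnf111, Zfp451, Pml, Sp100, Ubb and the 3 markers that passed, and the count of genes that step like Sumo3, were chosen after their values were seen. Some genes that the rule names are not reported here. Alternatives are given in the closing section.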

Additional observations from a re-analysis of the deposited data

How the results depend on the processing

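For Sumo3 in BMDM the log2 difference was 1.53 with a pseudocount of 0.1, and it lay between 1.325 and 1.503 without 1 library. In AHSC auranofin replicate 1 decides it, since it was -0.02 when that library was left out and 1.45 without auranofin replicate 2. Of 174 recomputed member differences, 18 changed sign, among them Sumo3 in AHSC and Senp2 in BMDM. Senp2 went from 0.19 to -0.0034 without auranofin replicate 1. The other differences that changed sign were at most 0.08 in size. Leaving out 1 library cannot shift a difference by more than the SD between replicates, so the 64 such values were not judged by it. Of the other 110 values, 3 moved by more than that SD. The block, the missing trend and the changed filters leave each difference as it was by construction.

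Calls over all genes depended more on the settings. In AHSC the 70 genes called became 124 with a pseudocount of 0.1 and 107 to 139 without 1 library, where the lone library is assumed to vary like the other group. In BMDM the 14 became 27 with a pseudocount of 0.1, 8 with a mean of at least 5 FPKM, and 14 to 2146 without 1 library (2146 without auranofin replicate 2, 31 without auranofin replicate 1 and 27 without control replicate 2). Without BMDM auranofin replicate 2, 8 of the other SUMO pathway genes were called in BMDM, and 0 were in either table under every other setting run. With the replicate number as a block, 75 genes were called in AHSC and 42 in BMDM, but the numbers were not shown to pair the samples (correlation of deviations 0.109 and -0.0551). Genes at an adjusted p under 0.05 from limma, 283 in AHSC, were 49 without a filter on low values and 129 without a variance trend, and lay between 179 and 517 without 1 library. In BMDM the 1 such gene became 2 without a trend, 0 without a filter or with quantile normalization, 6051 without auranofin replicate 2, 15 without auranofin replicate 1 and 3 without control replicate 2.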

Other observations

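Other ubiquitin-like modifiers gave a comparison for the SUMO genes. All 13 of the list passed the minimum in both tables. In AHSC 8 were higher and 5 lower with auranofin, where 52.2% of all genes were higher. The median log2 difference was 0.03, beside 0.00487 for all genes. By limma 0 were called, beside 0.576% of all genes, and 5 had an unadjusted p under 0.05, beside 17.8%. In BMDM 13 of 13 were higher, where 66.1% of all genes were, with a median of 0.19 beside 0.09 for all genes. By limma 0 were called in BMDM, beside 0.152% of all genes, and 0 had an unadjusted p under 0.05, beside 0.531%. By library, the median was 0.26 (auranofin replicate 1) and 0.09 (replicate 2), against 0.18 and 0.00 for all genes.

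Ubb, a polyubiquitin gene, had 233 and 229 FPKM in the BMDM controls, 488 FPKM in auranofin replicate 1 but 229 FPKM in replicate 2. It was thus at the control level in the library in which Sumo3 was still high at 18.7 FPKM. Isg15, an interferon-induced modifier, had the lowest log2 difference of the list in AHSC, -0.30 (standard error 0.09, adjusted p = 0.190 from limma).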
